A study of Homo sapiens with 16 samples.

Results

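The genes described here encode the actin cytoskeleton of MCF10A cells and are targets of serum response factor (SRF). They are the actins ACTB, ACTG1 and ACTA2, the actin-binding proteins TAGLN, CNN1, TPM1 and TPM2, the myosin regulatory light chain MYL9, the adhesion protein VCL and the crosslinker FLNA. Every row of the deposited intensity table with 1 of these 10 gene symbols was taken. Each row was kept separate and is called a probe here, which gave 14 probes among the 20589 rows of the table and 10 of its 18190 gene symbols. Of the 14 probes, 8 were detected on all 16 arrays, 2 on some arrays and 4 on none, and 10 probes of 9 genes entered the tests. MCF10A cells are human breast epithelial cells that were never transformed, grown here without serum in medium with insulin, hydrocortisone and epidermal growth factor. The 0 h cells were untreated, and the cells of the 15 later time points, at every 3 h up to 45 h, had received a small molecule inhibitor of the HER2 receptor kinase at 1 µM, in a change of medium at 0 h. RNA from parallel plates was measured with 1 Illumina human Ref8v2 bead array for each time point. There was no replicate array and no series of untreated cells, so the effects of the inhibitor, of fresh medium and of time in culture cannot be told apart.

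Actin exists in cells as single subunits and as filaments, and the balance between the forms is tied to transcription. Free actin subunits hold the cofactors MRTF-A and MRTF-B (named MKL1 and MKL2 on this array) in the cytoplasm, and when actin polymerizes these cofactors enter the nucleus and join SRF on a DNA element called the CArG box, where they drive genes of actin, its regulators and cell adhesions. SRF also works with ternary complex factors such as ELK1, which are phosphorylated by ERK downstream of growth factor receptors and act on immediate-early genes such as FOS and EGR1. In breast tissue ACTA2, CNN1, MYL9 and TAGLN are known as genes of the contractile myoepithelial layer.

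Promoter windows from RefSeq on the human assembly GRCh38.p14, covering 250 bases before to 50 bases after an annotated start, were at hand for 7 of the 10 genes, in 9 windows. A CArG box was read as paired cytosines, 6 inner positions that are each A or T, and paired guanines, a pattern that is the same on both strands. It was found in the windows of ACTG1 and FLNA, and in 1.29% of all 35116 promoter windows of that length. When 1 inner position was allowed to differ, the pattern was also found in a window of ACTA2, at 2 places, and in 8.13% of all windows. These 3 windows are shown because they hold the matches. Their genes had the 3 widest ranges of level among the members detected on all arrays. The width of FLNA came from its 45 h array, which read 8.41 on the log2 scale, while its other arrays read 9.07 to 9.56. No window was at hand for ACTB, whose log2 range was 1.08 beside 1.15 for FLNA. A link between match and range was not tested. The matched letters are in capitals, each sequence is written 5′ to 3′ on the strand of the gene, and a match is a description of the letters only.
ACTG1, chr17:81512750-81513049, minus strand: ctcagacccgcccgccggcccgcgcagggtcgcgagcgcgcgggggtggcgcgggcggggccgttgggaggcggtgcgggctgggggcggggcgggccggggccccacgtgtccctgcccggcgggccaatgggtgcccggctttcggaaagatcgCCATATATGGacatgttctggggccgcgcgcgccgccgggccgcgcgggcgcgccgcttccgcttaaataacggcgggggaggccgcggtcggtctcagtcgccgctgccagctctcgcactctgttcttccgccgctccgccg
FLNA, chrX:154374585-154374884, minus strand: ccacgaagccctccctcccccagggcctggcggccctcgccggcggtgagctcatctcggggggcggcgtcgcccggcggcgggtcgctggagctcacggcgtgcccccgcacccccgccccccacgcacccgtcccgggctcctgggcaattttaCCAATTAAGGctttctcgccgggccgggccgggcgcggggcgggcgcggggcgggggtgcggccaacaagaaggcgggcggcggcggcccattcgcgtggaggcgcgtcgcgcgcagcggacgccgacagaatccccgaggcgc
ACTA2, chr10:88952724-88953023, minus strand: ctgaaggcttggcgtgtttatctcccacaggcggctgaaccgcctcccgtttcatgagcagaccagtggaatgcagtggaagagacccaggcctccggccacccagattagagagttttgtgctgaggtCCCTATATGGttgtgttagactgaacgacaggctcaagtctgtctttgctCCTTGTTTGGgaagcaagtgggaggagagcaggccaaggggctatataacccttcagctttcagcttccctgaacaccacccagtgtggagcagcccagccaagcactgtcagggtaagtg
The box of ACTG1 begins 94 bases before the start and so does that of FLNA, and the ACTA2 matches begin 121 and 71 bases before the start. The windows of CNN1, TPM1, TPM2 and VCL, and the other window of ACTA2, held no match.

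The arrays were of like quality, with 50.15% to 52.89% of rows detected and a median intensity of 210 to 254. The cells carried the markers of basal mammary epithelium for the most part: 6 of 9 listed genes were detected on all arrays, KRT5 at 28830 to 43969 units, but KRT14 on 1 array only and ITGA6 on none. Of 6 genes of differentiated smooth muscle, MYH11, DES, ACTG2 and SYNPO2 were never detected, LMOD1 was detected on 14 arrays and SMTN on all, and their summed intensity stayed between 1075 and 1622 units. Of 6 fibroblast genes, DCN was detected on 5 arrays and the other 5, COL1A1 among them, on none, with a summed intensity of 1006 to 1180 units. The values below are log2 intensities after background correction and quantile normalization unless called bead intensities, which are the deposited values. Differences between windows of successive time points were tested with limma over all 11957 tested probes, and a probe was called at a Benjamini-Hochberg adjusted p under 0.05. The time points of a window are not replicates, and the spread within a window also holds change over time.

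Over the whole series ACTG1, ACTB and VCL rose to 6 and 9 h, ACTG1, VCL, ACTA2 and TPM1 fell by 12 to 21 h while TPM2 rose, no change was called from there to 33 h, and ACTA2, TAGLN and TPM1 rose from 36 h. A smooth curve of time (natural cubic spline with 3 df) was called for 3 of the 10 tested probes, ACTA2 (adjusted p = 1.8e-06, limma), TAGLN (adjusted p = 0.012, limma) and TPM2 ILMN_22618 (adjusted p = 0.0025, limma), beside 54.6% of all tested probes. This count depended on the curve and on the first array: with 5 df it was 8 probes, with a straight line 1, and without the 0 h array 7, ACTB, ACTG1, TPM1 and VCL being the added ones. In these bulk samples fewer cells of a type and less RNA per cell cannot be told apart.

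**Figure D1:**
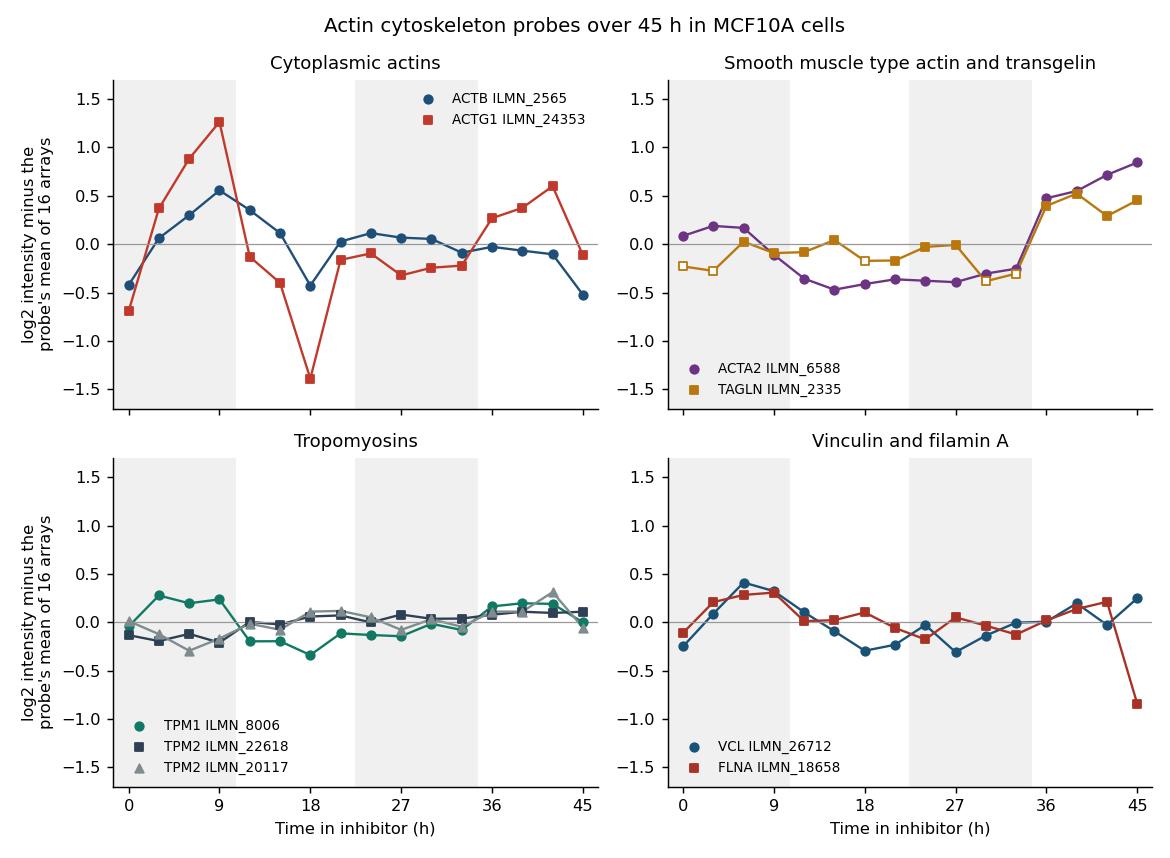
Log2 intensity of 9 tested probes minus the mean of each probe over its 16 arrays (vertical axis), against hours in inhibitor (horizontal axis); filled points were detected, open points were not, and grey bands mark the windows 0-9 h and 24-33 h. ACTG1 and ACTB peak at 9 h and dip at 18 h, ACTA2 and TAGLN step up at 36 h, and FLNA drops at 45 h.

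ACTG1, the gamma actin of nonmuscle cells, had the widest course. Its bead intensity was 7008 at 0 h and 26393 at 9 h, its highest, and 5036 at 18 h, its lowest, with a median of 10772. On the log2 scale the first 4 arrays read 12.79, 13.85, 14.37 and 14.75, so that each was higher than the one before, and the 9 h level was 3.88-fold that of 0 h. Highest over lowest was 6.29-fold, and 0.97% of all tested probes had a wider range. The levels of 6 and 9 h lay above those of 0 and 3 h without overlap, by 1.24 ± 0.33 (SE) on the log2 scale or 2.36-fold (adjusted p = 0.0087, limma).

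A fall followed. ACTG1 read 13.36, 13.09, 12.10 and 13.32 at 12, 15, 18 and 21 h, all below both the 6 and the 9 h array, and the windows differed by -1.59 ± 0.28 on the log2 scale, or 3.02-fold (adjusted p = 5e-04, limma). Without the 18 h array the difference was -1.31 and was still called (adjusted p = 5e-04, limma). From 24 to 33 h the gene lay between 13.16 and 13.39 with an SD of 0.0942, the smallest of its windows. It then read 13.75, 13.86 and 14.08 at 36, 39 and 42 h, all above the 24-33 h arrays, and 13.37 at 45 h, within them. The late difference of 0.50 ± 0.23 missed the threshold (adjusted p = 0.085, limma), though it was called when only the 8 arrays of both windows were fitted (adjusted p = 0.0016, limma) and without any of the arrays of 0, 3, 18 or 45 h (adjusted p = 0.021 to 0.042, limma). Between the first and the last window it differed by -0.17 on the log2 scale, with a 95% interval of -0.84 to 0.50 (adjusted p = 0.72, limma). The sign turned when 0 and 3 h were set against 42 and 45 h (0.41, adjusted p = 0.39, limma) and without the 9 h array (0.10, adjusted p = 0.83, limma).

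ACTB, the beta actin that is often used as a loading reference, also rose early. Its bead intensity ranged from 13749 at 45 h to 31491 at 9 h, with a median of 22119. It read 13.96 and 14.45 at 0 and 3 h and 14.69 and 14.94 at 6 and 9 h, with no overlap, a difference of 0.61 ± 0.19 or 1.52-fold (adjusted p = 0.025, limma). At 12, 15, 18 and 21 h it read 14.74, 14.50, 13.96 and 14.41, so the 12 h array lay between those of 6 and 9 h, and the difference from 6-9 h of -0.41 ± 0.17 was not called (adjusted p = 0.075, limma). From 21 to 42 h ACTB stayed between 14.28 and 14.50, and it ended at 13.86. The late window was 0.30 ± 0.17 below 0-9 h on the log2 scale, which was not called (adjusted p = 0.20, limma), but without the 0 h array the difference was -0.49 and was called (adjusted p = 0.015, limma). Gamma and beta actin are nearly identical proteins, the probe sequences are not given in the sources used here, and binding of a probe to another actin transcript was not tested.

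The 18 h array gave the lowest level of ACTG1, and ACTB was low there too. Against the mean of the arrays of 15 and 21 h, ACTG1 was 2.16-fold lower, the 5th lowest of the 11957 tested probes by that measure, and ACTB was 1.41-fold lower. TPM1 was 1.14-fold lower, while ACTA2 lay 0.0044 above that mean on the log2 scale, so the dip was not shared by all actins. Over the array as a whole 1.31% of tested probes lay at least 1.5-fold below the mean of their neighbours at 18 h, in a range of 0.234% to 3.01% for the arrays of 3 to 42 h. With 1 array at that time, the dip has no replicate.

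VCL, vinculin, which links integrin adhesions and cadherin junctions to actin filaments, followed the early course. The probe ILMN_26712 read 11.90, 12.23, 12.56 and 12.47 at 0, 3, 6 and 9 h and 12.25, 12.05, 11.85 and 11.91 from 12 to 21 h, with bead intensities of 3723 to 5898 and a median of 4759. The 6-9 h window lay above 0-3 h by 0.45 ± 0.13 or 1.36-fold (adjusted p = 0.019, limma), and the 12-21 h window lay below 6-9 h by 1.41-fold (log2 change -0.50 ± 0.12, adjusted p = 0.0042, limma), without overlap in either case. At 36 to 45 h it read 12.15, 12.34, 12.12 and 12.39, overlapping the 24-33 h values of 11.84 to 12.14, and the difference of 0.23 ± 0.10 missed the threshold (adjusted p = 0.061, limma) and was -0.01 with median scaling. The other VCL probe, ILMN_27566, was not detected on any array.

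Of all members, 3 of the 10 tested probes were called higher at 6-9 h than at 0-3 h (ACTG1, ACTB and VCL) and none lower, with 0 lower at an unadjusted p under 0.05 in limma, beside 13.5% of all tested probes called higher and 11.1% lower. The median change of the 10 was 0.16 on the log2 scale, against -0.01 over all tested probes. Each of these 3 calls rested on single arrays. Without the 0 h array the changes were 0.70 for ACTG1, 0.36 for ACTB and 0.27 for VCL (adjusted p = 0.18, 0.28 and 0.25, limma), without the 9 h array 1.05, 0.48 and 0.49 (adjusted p = 0.10, 0.21 and 0.061, limma), and VCL was also lost without the 6 h array (adjusted p = 0.096, limma). When only the 4 arrays of the windows were fitted, none was called (adjusted p = 0.05, 0.058 and 0.081, limma), and without an intensity trend in the variance ACTB was lost (adjusted p = 0.06, limma).

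**Figure D2:**
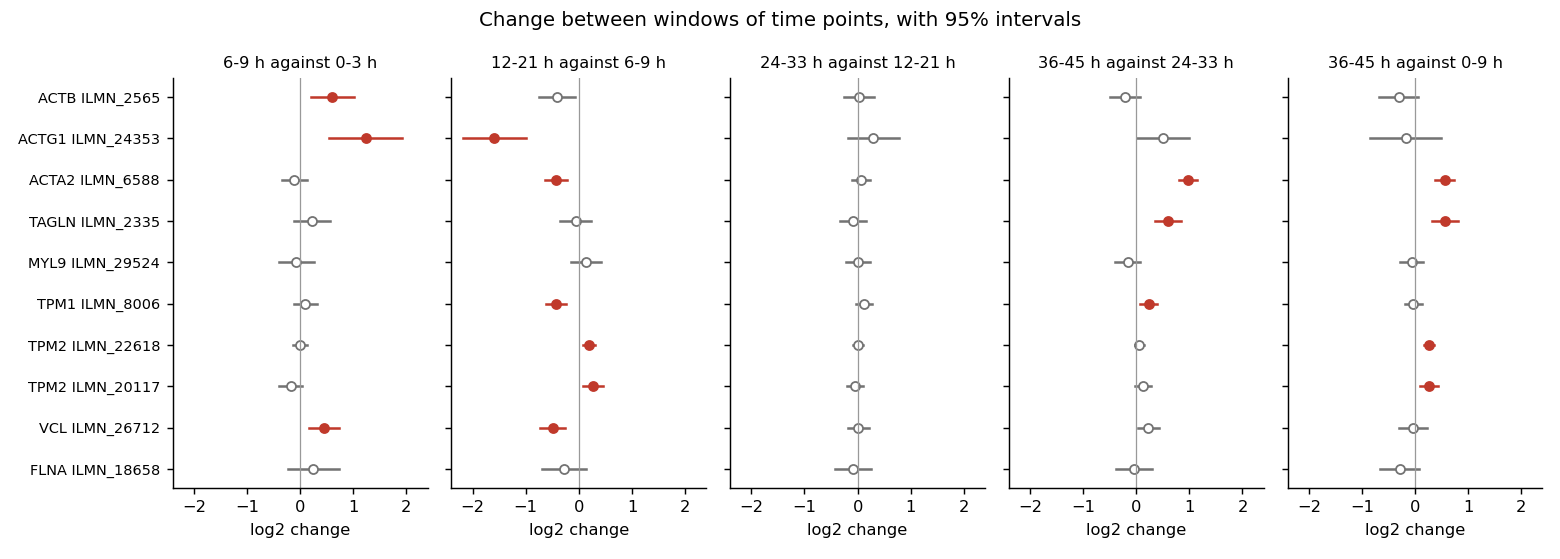
Log2 change (horizontal axes, points) with its 95% interval (bars) of the 10 tested probes in 5 comparisons of windows, from the limma fits; filled red points were called at an adjusted p under 0.05. Early changes are largest for ACTG1, no probe is called between 12-21 h and 24-33 h, and ACTA2 has the largest called late rise, 0.98.

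From 6-9 h to 12-21 h 4 of the 10 probes were called lower (ACTG1, ACTA2, TPM1 and VCL) and 2 higher (both TPM2 probes), beside 12.7% of all tested probes called lower and 12.8% higher. The median change of the 10 was -0.34, and that of all tested probes -0.01. Without the 6 h array, VCL (-0.45, adjusted p = 0.067, limma), ACTA2 (-0.29, adjusted p = 0.12, limma) and TPM2 ILMN_20117 (0.20, adjusted p = 0.28, limma) were no longer called. Between 12-21 h and 24-33 h no member was called, and none had an unadjusted p under 0.05 in limma. In that comparison 0.00836% of all tested probes were called higher and 0.0585% lower.

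ACTA2, alpha smooth muscle actin, had a course of 3 levels. Its bead intensity was 1907 at 15 h, its lowest, and 3995 at 42 h, its highest, with a median of 2400. It read 11.36, 11.47, 11.44 and 11.17 at 0 to 9 h, 10.81 to 10.92 at 12 to 21 h and 10.88 to 11.02 at 24 to 33 h. At 36, 39, 42 and 45 h it read 11.75, 11.83, 11.99 and 12.12, each above every earlier array. The fall from 6-9 h to 12-21 h was 1.35-fold (log2 change -0.43 ± 0.10, adjusted p = 0.0034, limma), and the rise from 24-33 h to 36-45 h was 1.97-fold (log2 change 0.98 ± 0.08, adjusted p = 2.4e-08, limma). Most of that rise lay in the step from 33 to 36 h, 0.73 on the log2 scale, and 3.92% of all tested probes rose more in that step.

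Against the first 4 time points the late level of ACTA2 was 1.48-fold higher (log2 change 0.56 ± 0.09, adjusted p = 8.7e-05, limma). It was called under every alternative run for that comparison, with changes of 0.49 to 0.66. The step from 33 to 36 h was a broad one: 7.02% of all tested probes rose and 6.74% fell by at least 1.5-fold, against 0.795% to 2.93% in either direction at the other steps from 12 h on. Among the earlier steps, those from 3 to 6 h (7.7% and 6.77%) and from 9 to 12 h (7.84% and 6.38%) were about as broad. Whether the arrays from 36 h on lay on another chip was not tested, since no source used here names the chips.

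TAGLN, transgelin (SM22), an early marker of smooth muscle that stiffens actin filaments, was dim. The probe ILMN_2335 had bead intensities of 209 to 287 with a median of 246, and it was detected on 2 of the 4 arrays of 0-9 h, 3 of 12-21 h, 2 of 24-33 h and all 4 of 36-45 h. It read 6.13, 6.08, 6.38 and 6.27 at 0 to 9 h and 6.75, 6.88, 6.65 and 6.81 at 36 to 45 h, with no overlap. The late window was 1.47-fold above the first (log2 change 0.56 ± 0.12, adjusted p = 0.0013, limma) and 1.51-fold above 24-33 h (log2 change 0.60 ± 0.12, adjusted p = 0.00031, limma). The offset added after background correction compresses the changes of so dim a probe, and the late change against 0-9 h was 0.40 with an offset of 50 and 0.24 without background correction, called in both cases. The other TAGLN probe, ILMN_30232, was not detected on any array, so the rise was seen with 1 of 2 probes.

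CNN1, calponin, and MYL9, the regulatory light chain of smooth muscle and nonmuscle myosin, gave little signal. CNN1 had bead intensities of 144 to 203 and was detected on no array. MYL9 had bead intensities of 179 to 229 and was detected on 7 arrays, 1 of 0-9 h, 3 of 12-21 h, 3 of 24-33 h and none of 36-45 h. By its detection p-values the MYL9 row combines several probes. No change of MYL9 was called in any comparison, and where the late arrays were not above background no fold is given. On the late arrays, where ACTA2 and TAGLN were at their highest, neither of these contractile genes was detected.

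The tropomyosins, coiled-coil proteins that lie along the actin filament and gate the access of myosin and cofilin, had narrow courses. TPM1 and TPM2 moved in opposite directions from 6-9 h to 12-21 h. TPM1 ILMN_8006 read 11.26, 11.58, 11.50 and 11.54 at 0 to 9 h, 10.97 to 11.19 at 12 to 21 h, 11.16 to 11.29 at 24 to 33 h and 11.30 to 11.50 at 36 to 45 h, with bead intensities of 2322 to 3124. It fell 1.35-fold from 6-9 h to 12-21 h (log2 change -0.43 ± 0.09, adjusted p = 0.002, limma) and rose 1.17-fold from 24-33 h to 36-45 h (log2 change 0.23 ± 0.07, adjusted p = 0.015, limma). With median scaling in place of quantile normalization the late rise was 0.06 and not called (adjusted p = 0.53, limma). The other TPM1 probe, ILMN_8958, was not detected on any array.

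TPM2 was measured by a pair of rows that were detected on all arrays. ILMN_22618 is a single probe, and ILMN_20117 by its detection p-values combines several. ILMN_22618 read 13.27 to 13.36 at 0 to 9 h, 13.46 to 13.55 at 12 to 21 h, 13.48 to 13.56 at 24 to 33 h and 13.56 to 13.59 at 36 to 45 h. Its highest over lowest was 1.25-fold, a range that 98.26% of the tested probes exceeded, yet the first 4 arrays lay below all later ones. The late level was 1.20-fold above that of 0-9 h by this probe (log2 change 0.26 ± 0.04, adjusted p = 0.00016, limma) and by ILMN_20117 (log2 change 0.26 ± 0.08, adjusted p = 0.02, limma). ILMN_20117 read 11.69 to 12.00 at 0 to 9 h and 11.93 to 12.30 at 36 to 45 h, so these windows overlapped, and 6 alternatives ended its call, among them leaving out the array of 6 h (0.21, adjusted p = 0.069, limma) or 42 h (0.20, adjusted p = 0.079, limma).

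The step up of TPM2 came between 6-9 h and 12-21 h, when it was 0.19 ± 0.05 by ILMN_22618 (adjusted p = 0.012, limma) and 0.27 ± 0.09 by ILMN_20117 (adjusted p = 0.035, limma) while TPM1, ACTG1, ACTA2 and VCL fell. Neither was called without an intensity trend in the variance (adjusted p = 0.066 and 0.074, limma). ILMN_22618 was also not called with only the compared arrays (adjusted p = 0.051, limma) or without the 9 h array (0.15, adjusted p = 0.12, limma), nor ILMN_20117 without the array of 6, 18 or 21 h (0.20 to 0.24, adjusted p = 0.075 to 0.28, limma).

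FLNA, filamin A, which crosslinks actin filaments and ties them to integrins, had no called change. It read 9.14, 9.46, 9.53 and 9.56 at 0 to 9 h, 9.19 to 9.35 at 12 to 21 h, 9.07 to 9.30 at 24 to 33 h and 9.27, 9.39 and 9.46 at 36, 39 and 42 h, and then 8.41 at 45 h, its lowest. The last step, -1.06 on the log2 scale, was among the lowest 0.2% of the tested probes. Without the 45 h array the change from 24-33 h to 36-45 h went from -0.05 to 0.19, not called in either case (adjusted p = 0.85 and 0.12, limma). The 45 h array had the lowest median intensity of the series, 210 units, and ACTG1 (-0.71) and ACTB (-0.42) also fell in that step while ACTA2 rose by 0.13. The part of the array in these drops was not tested.

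From 24-33 h to 36-45 h 3 of the 10 tested probes were called higher (ACTA2, TAGLN and TPM1) and none lower, with 0 lower at an unadjusted p under 0.05 in limma, beside 22.6% of all tested probes called higher and 22.7% lower. With median scaling ACTB was called lower (-0.33, adjusted p = 0.029, limma). From 0-9 h to 36-45 h 4 were called higher (ACTA2, TAGLN and both TPM2 probes) and none lower, again with 0 lower at an unadjusted p under 0.05 in limma, beside 16.2% called higher and 15% lower. The median change of the 10 probes in that comparison was -0.03 and that of all tested probes -0.02. Of the 60 results of member probes, 22 changed their call under at least 1 alternative, and none of those called reversed direction.

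**Figure D3:**
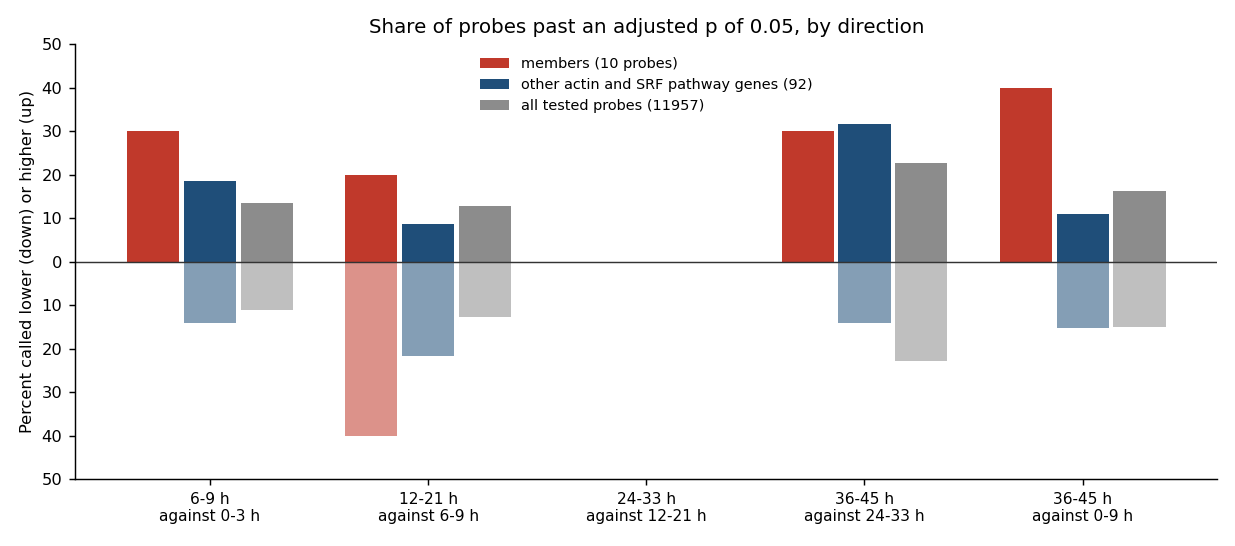
Percent of probes called higher (bars up, solid) and lower (bars down, pale) at an adjusted p under 0.05 in 5 comparisons of windows (horizontal axis), for the 10 member probes, 92 other genes of actin and SRF pathways and all 11957 tested probes. In the comparison of 24-33 h with 12-21 h nearly nothing is called, and in every other one the 10 probes give between 3 and 6 calls.

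As a description over the 16 arrays, which share a time order and a normalization, ACTG1 ran most closely with TPM1 (r = 0.86) and VCL (r = 0.78) among the members, and with ACTB r was 0.64. ACTA2 and TPM1 gave r = 0.69. The 2 TPM2 probes gave r = 0.65 with each other and ran against ACTB (r = -0.45 and -0.43). Among all tested probes the courses most like that of ACTG1 were those of TMEM69 (r = 0.90), SPPL2A (r = 0.89) and TAF7 (r = 0.89), and those most like ACTA2 were MSLN, TMC4 and CNFN (r = 0.99 each). Among the courses most like FLNA were those of ARPC4 (r = 0.91), a subunit of the complex that branches actin filaments, and PLEC1 (r = 0.89).

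The other genes of the pathway were taken as 9 lists with 92 tested genes, and they give the setting of the members. At 6-9 h against 0-3 h 17 were called higher and 13 lower, beside 13.5% and 11.1% of all tested probes. At 12-21 h against 6-9 h 8 were higher and 20 lower, beside 12.8% and 12.7%, and at 36-45 h against 24-33 h 29 were higher and 13 lower, beside 22.6% and 22.7%. The shares of the listed genes are in the plot of percent called. Between 12-21 h and 24-33 h none was called, with 4 at an unadjusted p under 0.05 in limma. From the first to the last window 10 were called higher and 14 lower, beside 16.2% and 15% of all tested probes. Of the 92 genes, 20.7% had their highest array at 6 or 9 h, against 4 of the 10 member probes and 16.7% of all tested probes.

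SRF itself read 11.39, 11.89, 11.77 and 11.39 at 0 to 9 h and 10.96 to 11.16 at 36 to 45 h, with no overlap, and was 1.45-fold lower late (log2 change -0.54 ± 0.11, adjusted p = 0.00099, limma). ELK1, a ternary complex factor, was 1.39-fold lower (log2 change -0.48 ± 0.11, adjusted p = 0.0026, limma), a call lost without the step from 21 to 24 h (-0.43, adjusted p = 0.072, limma). These were the 2 called of the 5 tested genes of SRF and its partners, beside 15% of all tested probes called lower. Neither MKL1 nor MKL2 was called. The fall of SRF lay between 6-9 h and 12-21 h (log2 change -0.45 ± 0.12, adjusted p = 0.013, limma), and from 24-33 h to 36-45 h, when ACTA2 and TAGLN rose, its change was -0.0030 (adjusted p = 0.99, limma).

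The immediate-early genes bound by SRF fell early, when the cytoplasmic actins rose. Of 11 listed genes 6 were tested, and 5 were called lower at 6-9 h than at 0-3 h, beside 11.1% of all tested probes. They were FOS, EGR2, IER2, ZFP36 and EGR1, the last 3 outside the rule for this comparison and named after their values were seen. FOS, a subunit of the AP-1 transcription factor, read 12.25 at 0 h, 10.14 at 3 h, 9.10 at 6 h and 9.38 at 9 h, a fall of 3.86-fold between the windows (log2 change -1.95 ± 0.38, adjusted p = 0.00081, limma). Without the 0 h array that change was -0.89 and was still called (adjusted p = 0.004, limma). EGR2 was not above background at 6 and 9 h, and its level at 0-3 h was at least 1.60-fold higher (adjusted p = 0.00072, limma). ZFP36, which destabilizes mRNA, fell by 0.66 ± 0.16 on the log2 scale (adjusted p = 0.0043, limma), but was not called without the array of 0 h (-0.28, adjusted p = 0.14, limma) or 9 h (-0.58, adjusted p = 0.062, limma). IER2, which like FOS is induced within minutes by growth factors, fell by 0.75 ± 0.15 (adjusted p = 0.0015, limma). With only the compared arrays FOS, IER2, EGR2 and ZFP36 were not called (adjusted p = 0.081, 0.081, 0.059 and 0.11, limma). The early change of EGR1 was -0.39 ± 0.11 (adjusted p = 0.015, limma), and it was not run under the alternatives. From 24-33 h to 36-45 h 5 of the 6 were called higher, beside 22.6% of all tested probes, in the window in which ACTA2 and TAGLN rose. FOS rose by 0.97 ± 0.27 (adjusted p = 0.0055, limma) and EGR1 by 0.64 ± 0.08 (adjusted p = 1.9e-06, limma). Both were named outside the rule, which does not cover this comparison. From the first to the last window EGR1 was 0.37 ± 0.10 higher (adjusted p = 0.011, limma) and IER2 fell by 0.68 ± 0.17 (adjusted p = 0.0044, limma), and neither was called without the step from 21 to 24 h (adjusted p = 0.33 and 0.12, limma). EGR1 was also lost with only the compared arrays (adjusted p = 0.057, limma) and with 0 and 3 h against 42 and 45 h (adjusted p = 0.16, limma).

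**Figure D4:**
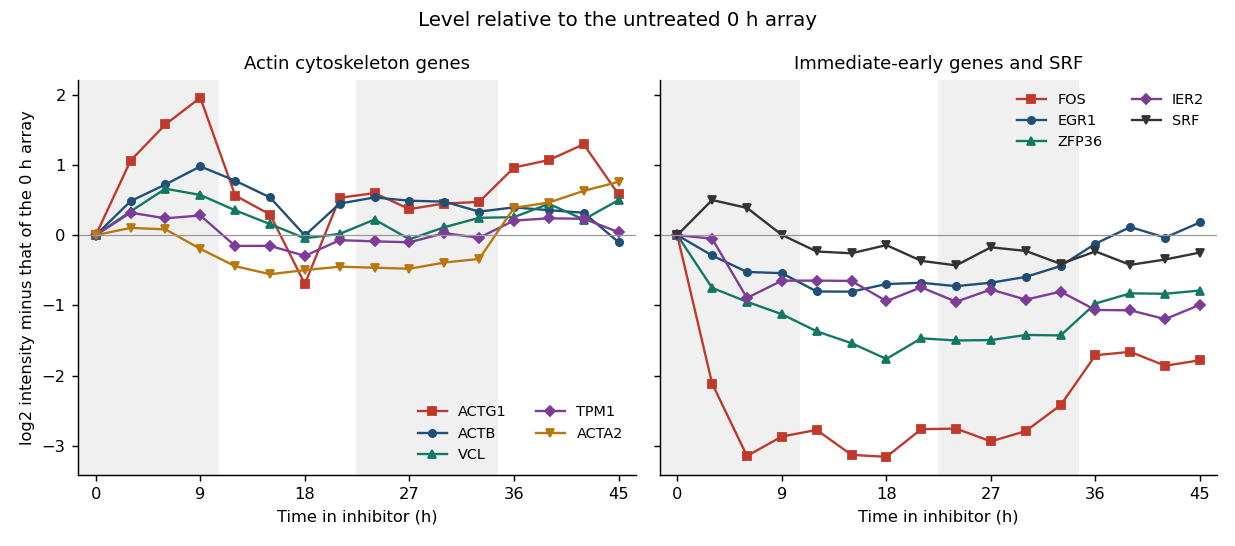
Log2 intensity minus that of the untreated 0 h array (vertical axes) against hours in inhibitor (horizontal axes), with 1 line for each gene; grey bands mark the windows 0-9 h and 24-33 h. At 6 and 9 h ACTG1, ACTB and VCL lie above their 0 h level while FOS, EGR1, ZFP36 and IER2 lie below theirs, and from 36 h ACTA2 and EGR1 lie above their 33 h level.

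The focal adhesion and LIM proteins were mixed. Of 21 tested, 4 were called higher and 2 lower at 6-9 h than at 0-3 h, beside 13.5% and 11.1% of all tested probes. PDLIM7, a LIM protein of actin bundles, was 2.08-fold higher (log2 change 1.06 ± 0.17, adjusted p = 0.00013, limma). ENAH, an actin elongation factor, was 2.28-fold lower (log2 change -1.19 ± 0.21, adjusted p = 4e-04, limma). At 12-21 h against 6-9 h 3 were higher and 7 lower, beside 12.8% and 12.7% of all tested probes. From the first to the last window 3 were higher and 5 lower, beside 16.2% and 15% of all tested probes. LPP was 1.52-fold higher (adjusted p = 0.00012, limma) and CSRP2 2.22-fold lower (adjusted p = 9.2e-05, limma). FERMT1 (C20orf42 on the array), which activates integrins, was 1.89-fold lower (adjusted p = 0.00093, limma). LPP and CSRP2 are LIM proteins that sit on actin filaments or adhesions.

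Among 15 other actin-binding and crosslinking proteins 4 were higher and 2 lower at 6-9 h than at 0-3 h, beside 13.5% and 11.1% of all tested probes. CNN2, the calponin of nonmuscle cells, rose 1.65-fold (log2 change 0.72 ± 0.12, adjusted p = 0.00025, limma) and FSCN1, fascin, which bundles filaments in protrusions, rose 1.62-fold (log2 change 0.70 ± 0.11, adjusted p = 0.00012, limma). The change of CNN2 was 0.44 without the 0 h array (adjusted p = 0.0048, limma), and it was not called with only the compared arrays (adjusted p = 0.056, limma). From the first to the last window 2 of the 15 were called higher and 1 lower, beside 16.2% and 15% of all tested probes. MSN (log2 change 0.44 ± 0.12, adjusted p = 0.012, limma, and adjusted p = 0.15 without the step from 21 to 24 h) and RDX (0.35 ± 0.07, adjusted p = 0.0016, limma), which tie filaments to the plasma membrane, were higher. FSCN1 was lower (-0.41 ± 0.14, adjusted p = 0.034, limma), a call that 10 alternatives ended. TPM4 rose early as ACTG1 did, 1.81-fold at 6-9 h (log2 change 0.86 ± 0.24, adjusted p = 0.013, limma). Its late level was 1.54-fold below the first (log2 change -0.62 ± 0.23, adjusted p = 0.047, limma), and 17 alternatives ended the late call. No late fall was called for ACTG1 (log2 change -0.17, adjusted p = 0.72, limma). The early call of TPM4 was lost without the array of 0 h (0.47, adjusted p = 0.24, limma) or 9 h (0.77, adjusted p = 0.11, limma). TPM3 changed by 0.24 and -0.22 on the log2 scale in these comparisons (adjusted p = 0.048 and 0.027, limma), and 16 and 9 alternatives ended the calls.

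Of 19 genes of actin turnover 2 were called higher at 6-9 h and none lower, beside 13.5% and 11.1% of all tested probes. They were WDR1, a cofactor of cofilin, 1.52-fold (adjusted p = 0.00054, limma) and CAP1, which recycles actin subunits, 1.23-fold (adjusted p = 0.0069, limma). Without the 0 h array CAP1 was not called (0.22, adjusted p = 0.11, limma). From the first to the last window 2 were higher and 2 lower, beside 16.2% and 15% of all tested probes. PFN1, profilin, which feeds subunits to growing filaments, fell 1.57-fold (log2 change -0.65 ± 0.11, adjusted p = 0.00018, limma) and CFL1, cofilin, which severs filaments, fell 1.25-fold (adjusted p = 8.8e-05, limma), while GSN, gelsolin, rose 1.34-fold (adjusted p = 0.0018, limma). Of 6 tested genes of myosin II, 2 were called higher at 6-9 h and none lower, beside 13.5% and 11.1% of all tested probes. MYL12A (MRCL3 on the array) was 1.28-fold higher (adjusted p = 0.003, limma), a call lost without the array of 0 or 9 h (adjusted p = 0.075 and 0.059, limma). MYH9 was 1.20-fold higher (adjusted p = 0.046, limma), a call lost in 15 alternatives. From the first to the last window 1 was higher and none lower, beside 16.2% and 15%. This was MYH10, 1.24-fold (adjusted p = 0.012, limma), not called with only the compared arrays (adjusted p = 0.063, limma) or with 0 and 3 h against 42 and 45 h (adjusted p = 0.074, limma). MYH10 changed by 0.71 on the log2 scale from 6-9 h to 12-21 h (adjusted p = 7.6e-05, limma). From 24-33 h to 36-45 h it changed by -0.32 (adjusted p = 0.004, limma), and these steps were not run under the alternatives.

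Of the 4 tested genes that YAP and MRTF share, 1 was called higher and 1 lower at 6-9 h, beside 13.5% and 11.1% of all tested probes. THBS1 was 2.08-fold higher (adjusted p = 0.0014, limma), and without the 0 h array its log2 change was 0.66 in place of 1.06 (adjusted p = 0.043, limma). CCN2 (CTGF on the array) was 2.19-fold lower (adjusted p = 0.00016, limma). Late against first 1 was called higher and 1 lower, beside 16.2% and 15% of all tested probes. CCN1 (CYR61 on the array) was 1.36-fold higher (adjusted p = 0.026, limma), a call that 6 alternatives ended, among them leaving out the array of 0, 3, 42 or 45 h (0.33 to 0.43 on the log2 scale, adjusted p = 0.05 to 0.083, limma).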

How the data were processed

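The authors deposited bead intensity values on a linear scale, without normalization, and a detection p-value for each row and array. Their methods state quality control and quantile normalization, and the summary software, background correction and annotation build are not given in the sources used here. From the deposited intensities, background was corrected with normexp (negative controls inferred from detection p-values of the 19092 single-probe rows, offset 16), followed by quantile normalization between arrays and log2, with limma 3.58.1 in R 4.3.3. The tests took the 11957 of 20589 probes that 3 or more arrays detected (p below 0.05). Time was fitted with a natural cubic spline (3 df), 36-45 h against 0-9 h in a fit of 4 windows, and neighbouring windows in a fit of 5, with 12, 12 and 11 residual df. Prior variances had an intensity trend. Errors are standard errors, and adjusted p-values are limma's over all tested probes. The fits were tested on simulated data with independent noise, where 99.5% to 100% of planted changes of 2 on the log2 scale were recovered. Smaller changes, such as those called for the members, and noise shared by successive arrays were not simulated. Probes not above background in a window are given as a bound, from the lowest detected single-probe level of each array. Correlations are Pearson's r. Figures were drawn with matplotlib 3.10.9. The members, gene lists and windows were chosen with earlier results of these data known. Named list genes are the 3 largest called changes late against first and the 2 largest at 6-9 h in each list, and others are said to be outside that rule. Changes of SRF, FOS, EGR1 and MYH10 between other windows were also given outside that rule. For a list gene with several probes the brightest was used. The alternatives concerned the background correction, offset, scaling, filters, variance model, curve, contrast and arrays used. Some results on listed genes are not reported here.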

Additional observations from a re-analysis of the deposited data

How the results depend on the processing

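Each array is the only one of its time point, so a value at 1 time has no replicate error, and the tests measure change between windows against the spread within them. The count of members called for time dependence, 3, was 8 with a spline of 5 df, 1 with a straight line, and 3 to 7 when single arrays were left out, the highest without 0 h. At 6-9 h against 0-3 h the count, 3, was 0 with only the compared arrays and 0 to 3 without single arrays, 0 without 0 h or 9 h. At 12-21 h against 6-9 h the count, 6, was 3 to 7 without single arrays, the lowest without 6 h. At 36-45 h against 24-33 h the count, 3, was 5 with only the compared arrays and 3 to 5 without single arrays, 5 without 0, 3 or 45 h, and at 36-45 h against 0-9 h the count, 4, was 3 to 5. No member was called between 12-21 h and 24-33 h under any alternative run, and no called result reversed. Of 38 results of listed genes, 21 changed their call under at least 1 alternative. No paired analysis was possible because each time point has 1 array.

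Over all tested probes, the straight line called 1953 in place of 6533. Median scaling changed the split of calls: of those late against first 73.1% were higher in place of 51.8%, at 6-9 h 65.1% in place of 54.9%, at 12-21 h 70.8% in place of 50.3%, at 24-33 h 84.1% in place of 12.5% (25% with cyclic loess), and at 36-45 h against 24-33 h 37.3% in place of 49.8%. It moved the median of all probes by less than 0.1 on the log2 scale. Late against first, the calls were 1932 higher and 1798 lower, with 1029 lower under median scaling, 1119 lower with only the compared arrays, and 868 and 749 without the step from 21 to 24 h. At 6-9 h against 0-3 h the calls, 1620 and 1333, were 499 and 383 with only the compared arrays, 951 and 694 without the 9 h array, and 854 lower without the 0 h array. At 12-21 h against 6-9 h the calls, 1535 and 1514, were 684 and 667 without the 6 h array and 903 lower under median scaling. At 24-33 h against 12-21 h, 1 higher and 7 lower, they were 37 higher under median scaling, 2 under cyclic loess, 4 with only the compared arrays and 0 without the intensity trend, and as few as 0 higher and 4 lower without single arrays.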
